A study of Mus musculus with 4 samples.

Results

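The genes described here are the replication-dependent histone genes of the mouse, 67 of the 21938 protein-coding genes that the GENCODE vM21 annotation places on the assembled chromosomes of mm10. The genes were chosen by name, as every protein-coding gene whose symbol starts with Hist1h, Hist2h, Hist3h or Hist4h. Peaks were assigned to a gene by position, when the summit (the base with the highest signal in a peak) lay in the gene or within 1500 bp of it. These genes supply the core histones H2A, H2B, H3 and H4 and the linker histone H1 that package newly made DNA. They lie in clusters, mostly lack introns, are transcribed mainly in S phase, and give mRNAs that end in a stem-loop bound by SLBP in place of a poly(A) tail. By type there were 6 genes of H1, 18 of H2A, 18 of H2B, 12 of H3 and 13 of H4.

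The data were peak lists of 4 ChIP-seq libraries from floating hematopoietic progenitors, obtained by differentiating mouse embryonic stem cells for 2 days. All cells carried the genotype labelled Tet-on dominant-negative FOS, a doxycycline-inducible transgene whose product interferes with AP-1, so that the cells without doxycycline carry it too. RUNX1, a transcription factor required for blood development, was precipitated from chromatin fixed with DSG and formaldehyde in 1 library labelled with doxycycline (+DOX) and 1 labelled without it (-DOX). The purpose of the RUNX1 comparison was to ask how blocking AP-1 changes where RUNX1 binds. The run name inside each RUNX1 list gives the opposite treatment, so each is called here by its label only. Of the 2 libraries labelled H3K27me3, the histone mark of Polycomb repression, title and treatment contradict each other and the protocol names an antibody against RUNX1. These are told apart by their titles and belong to no condition here. With 1 library per condition no difference between conditions could be tested, and the sequencing depth is unknown. At loci of blood progenitors, RUNX1 peaks were found for 6 of 8 genes in the list labelled +DOX and 5 of 8 in that labelled -DOX. Over all protein-coding genes the share was 53.2% and 49.6%, so counts over 8 genes say little about the cells. Spi1, Itga2b, Tal1, Gata2 and Runx1 itself had a peak in both lists. Kit and Gfi1b had none, and peaks do not measure expression.

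The H3 and H1 genes carried the strongest RUNX1 peaks of the group, and H3 and H1 differed in where the summits lay. At H3 genes the summit fell early in the coding sequence. The sequences below are the 61 bases around RUNX1 summits of H3 and H4 genes, read from GRCm38.p6 in the direction of the gene with the summit base in capitals. They are shown because each window lies wholly in coding sequence rather than in a promoter.
Hist2h3b summit in the list labelled +DOX, chr3:96268815-96268875, plus strand: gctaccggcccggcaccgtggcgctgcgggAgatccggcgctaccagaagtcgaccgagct
Hist2h3b summit in the list labelled -DOX, chr3:96268784-96268844, plus strand: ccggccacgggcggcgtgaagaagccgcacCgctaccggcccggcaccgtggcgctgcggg
Hist1h3e summit in the list labelled +DOX, chr13:23562245-23562305, minus strand: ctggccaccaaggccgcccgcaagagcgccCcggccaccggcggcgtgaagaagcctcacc
Hist1h3e summit in the list labelled -DOX, chr13:23562223-23562283, minus strand: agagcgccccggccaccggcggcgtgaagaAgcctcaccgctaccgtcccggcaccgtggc
Hist2h3c1 summit in the list labelled +DOX, chr3:96246910-96246970, plus strand: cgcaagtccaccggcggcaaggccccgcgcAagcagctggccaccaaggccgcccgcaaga
Hist2h3c1 summit in the list labelled -DOX, chr3:96246969-96247029, plus strand: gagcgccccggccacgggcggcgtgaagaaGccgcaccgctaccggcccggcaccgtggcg
Hist4h4 summit in the list labelled +DOX, chr6:136804264-136804324, minus strand: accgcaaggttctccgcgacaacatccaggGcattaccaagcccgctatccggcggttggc
Hist4h4 summit in the list labelled -DOX, chr6:136804225-136804285, minus strand: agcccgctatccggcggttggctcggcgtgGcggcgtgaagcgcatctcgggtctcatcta
The promoters below, the 120 bases before the RefSeq start, are shown for comparison. Matches to the TATA box and to the NF-Y, octamer, H1 box and RUNX motifs, whose letters are given with the motif counts, are in capitals on either strand. Hist1h1c and Hist1h1e had the strongest RUNX1 peaks of any histone gene in one list or the other, Hist1h1t was the one histone gene without a RUNX1 peak, Hist1h2bb belongs to the H2B genes with an octamer, and Hist3h2ba was the one with an H3K27me3 peak.
Hist1h1c promoter, chr13:23738687-23738806, plus strand: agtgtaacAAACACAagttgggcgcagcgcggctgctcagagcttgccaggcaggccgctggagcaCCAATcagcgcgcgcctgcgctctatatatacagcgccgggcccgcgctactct
Hist1h1e promoter, chr13:23622559-23622678, minus strand: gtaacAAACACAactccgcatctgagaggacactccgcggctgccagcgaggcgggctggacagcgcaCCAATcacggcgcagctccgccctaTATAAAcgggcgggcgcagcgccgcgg
Hist1h1t promoter, chr13:23695691-23695810, plus strand: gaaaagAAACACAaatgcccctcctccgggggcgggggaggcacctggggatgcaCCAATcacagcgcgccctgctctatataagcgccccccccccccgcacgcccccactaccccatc
Hist1h2bb promoter, chr13:23746614-23746733, plus strand: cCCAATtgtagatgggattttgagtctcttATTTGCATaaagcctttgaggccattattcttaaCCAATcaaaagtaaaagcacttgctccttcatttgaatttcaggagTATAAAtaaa
Hist3h2ba promoter, chr11:58948791-58948910, plus strand: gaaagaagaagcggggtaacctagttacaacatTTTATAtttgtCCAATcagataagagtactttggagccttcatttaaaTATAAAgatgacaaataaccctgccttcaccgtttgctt

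Nearly every histone gene had a RUNX1 peak and nearly none had an H3K27me3 peak. In the list labelled +DOX, 66 of 67 histone genes (98.5%, 95% Wilson interval 92.0% to 99.7%) had a RUNX1 summit in the gene or within 1500 bp, while 53.2% of all protein-coding genes did. In the list labelled -DOX it was again 66 of 67, against 49.6% of all genes. An H3K27me3 summit was found at 1 of 67 histone genes in the library titled untreated (1.49%, interval 0.264% to 7.98%), against 14.3% of all genes. The library titled DOX also had 1 of 67, against 14.8% of all genes. H3K27me3 calls were short: over each whole list the middle value was 180 bp (titled untreated) and 122 bp (titled DOX). Whether histone genes without such a call lacked the mark was not tested. The intervals cover counting error only, and neighbouring genes often share a peak, so the genes are not independent. These shares describe genes proposed with results of the same lists known and were not tested. With summits counted only within 1500 bp of the annotated start, 65 and 64 histone genes had a RUNX1 peak in the lists labelled +DOX and -DOX, beside 43.1% and 39.8% of all genes.

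**Figure D1:**
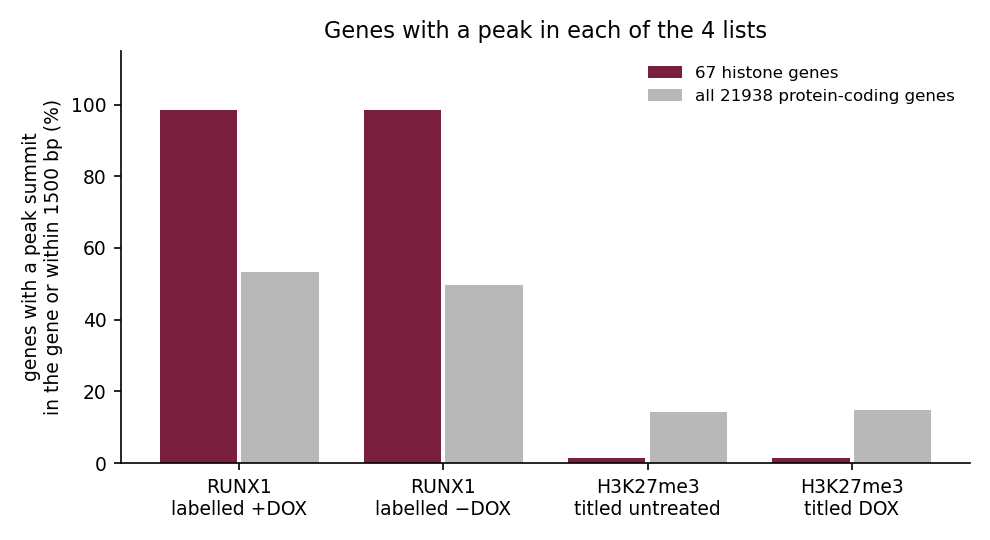
Share of genes with a peak summit in the gene or within 1500 bp (%), for the 67 histone genes and all 21938 protein-coding genes, in each of the 4 peak lists. The histone genes stand at 98.5% in both RUNX1 lists and at 1.49% in both H3K27me3 lists.

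All 18 H2A, 18 H2B, 12 H3 and 13 H4 genes had a RUNX1 peak in both lists, and 5 of 6 H1 genes did. The exception in both lists was Hist1h1t, the H1 of the male germ line. The nearest summit lay outside the limit by a small margin, 1664 bp from the gene in the list labelled +DOX and 1536 bp in that labelled -DOX, and it was that of the neighbouring H4 gene Hist1h4c. The members just inside the limit were Hist2h2aa1, at 858 bp in the list labelled +DOX, and Hist2h2be, at 1124 bp in that labelled -DOX. With shared peaks counted for each gene, no histone gene had a peak in only 1 of the RUNX1 lists. Because genes share peaks, the 66 genes rested on 73 distinct peaks in the list labelled +DOX and 69 in that labelled -DOX, of which 48 and 45 were assigned to more than 1 histone gene.

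The genes lie in 4 named families. The Hist1 family on chromosome 13 was split at a gap of over 200 kb into a first block (chr13:21715763-22043676, 23 genes) and a second block (chr13:23531050-23934851, 31 genes). Hist2 spans 50.3 kb on chromosome 3 (chr3:96219865-96270132, 10 genes), Hist3 is a pair on chromosome 11 (chr11:58948920-58956830), and Hist4 is the single gene Hist4h4 on chromosome 6 (chr6:136801553-136804415). A RUNX1 peak was present at 23 of 23 genes of the first block, 30 of 31 of the second, 10 of 10 of Hist2, 2 of 2 of Hist3 and at Hist4h4, in both lists. The 328 kb of the first block held 37 RUNX1 summits in the list labelled +DOX and 29 in that labelled -DOX. The 404 kb of the second held 34 and 35.

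RUNX1 peaks were highest in rank at H1, H3 and H4 genes and lower at H2A and H2B genes. Rank is given by column -log10 q, the caller's corrected significance, as its percentile within the own list, and each peak was counted for the histone gene with the nearest coding sequence. On this basis 61 genes had a peak of their own in each list, though not the same 61. Hist2h2ac had its own peak only in the list labelled +DOX and Hist1h3a only in that labelled -DOX. For the 12 H3 genes the median -log10 q was 47.2 over 11 genes in the list labelled +DOX (percentile 95.6) and 36.6 over 12 genes in that labelled -DOX (percentile 93.3). For H1 the medians over 5 genes were 38.8 and 41.6, at percentiles 93.7 and 94.4. H4 genes reached 23.1 and 20.8, at percentiles 85.5 and 83.4. H2A genes stood at 14.8 over 16 genes and 12.2 over 15, at percentiles 72.4 and 67.0. H2B genes, 16 in each list, were lowest, at 12.3 and 8.54 (percentiles 65.7 and 52.0). The order H1 and H3, then H4, then H2A and H2B was thus found in both lists, with overlapping ranges. Since each list was called on 1 library, these are descriptions of 2 libraries without a replicate check. Taking the strongest assigned peak of each gene, shared or not, the median percentile of the 66 histone genes was 85.2 in the list labelled +DOX and 84.3 in that labelled -DOX. For all 11678 and 10889 genes with a peak it was 64.4 and 61.9. Shared strong peaks count for several histone genes here. With each distinct histone peak counted once, the median percentile was 72.3 in the list labelled +DOX and 75.1 in that labelled -DOX.

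**Figure D2:**
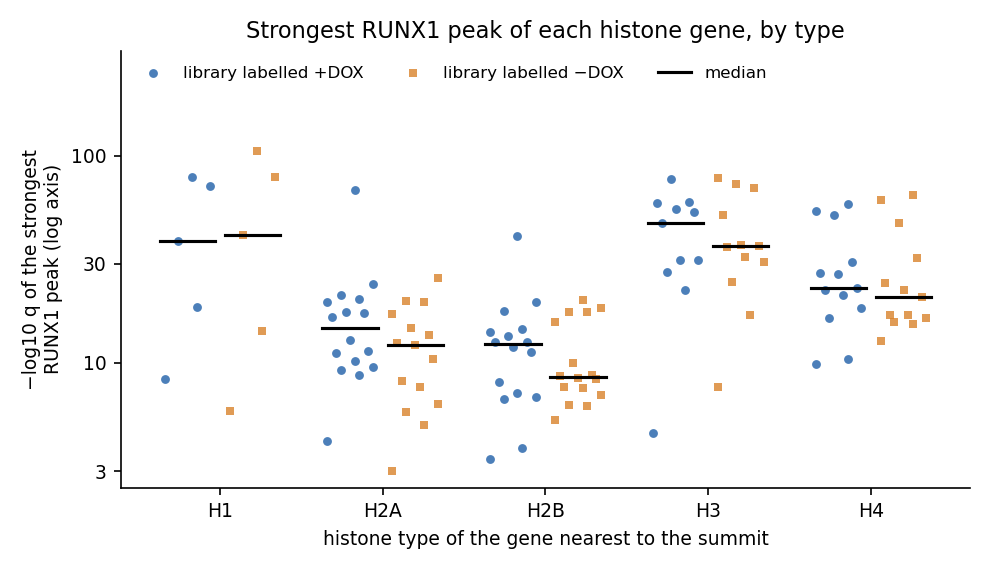
-log10 q (log axis) of the strongest RUNX1 peak of each histone gene, by histone type, in the libraries labelled +DOX (circles) and -DOX (squares), where each peak counts for the nearest gene and the bar is the median. H3 has medians of 47.2 and 36.6, while H2B has 12.3 and 8.54, and the types overlap.

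The strongest peak assigned to each gene, shared or not, is given next. The highest in the list labelled +DOX was that of Hist1h1e, which encodes a linker histone, with a -log10 q of 78.6 (percentile 98.6) and 78.5 (percentile 98.4) in the list labelled -DOX. This peak was also assigned to Hist1h2be, whose annotated span of 37455 bp reaches into Hist1h1e. In the list labelled -DOX the highest was Hist1h1c, another linker histone gene, at 105 (percentile 99.3), with 71.5 (percentile 98.2) in that labelled +DOX. Hist2h3b, an H3 gene of chromosome 3 whose peak was shared with Hist2h2bb, had 77.1 and 73.2 in the lists labelled +DOX and -DOX. Hist2h3c1, shared with Hist2h2aa1, had 59.6 and 77.7, and the inverted copy Hist2h3c2, shared with Hist2h2aa2, had 68.4 and 69.7. Hist1h3e, an H3 gene of the second Hist1 block, had 59.1 and 51.6, and Hist4h4, the lone H4 gene of chromosome 6, had 53.9 and 64.5. These members held a percentile of 96.2 or more in each list. When each peak is counted for the nearest gene alone, the 68.4 belongs to Hist2h2aa2, and Hist2h3c2 has 4.58 (percentile 17.5) in the list labelled +DOX. On that basis the lowest values in the list labelled +DOX were 3.45 (percentile 8.04) at Hist3h2ba and 3.87 (percentile 10.4) at Hist1h2bj, H2B genes, and 4.20 (percentile 14.9) at Hist1h2ag, an H2A gene. In the list labelled -DOX these genes had 5.30, 7.03 and 3.03. The peaks of 26.8 and 24.3 counted for Hist1h4i also lay within 1500 bp of Hist1h2ag. The fold enrichment over the local background was 10.2 and 9.98 at Hist1h1e, 6.97 and 8.69 at Hist1h1c and 10.5 and 10.8 at Hist2h3b, while over all peaks of the 2 lists the median fold was 5.21 and 5.05. These genes are among the strongest of the group. Over all distinct histone peaks the median fold was 4.32 and 4.45, below that of the whole lists.

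The difference between types was also seen within each block of Hist1. In the first block the median -log10 q of the H3 genes was 39.4 in the list labelled +DOX and 34.3 in that labelled -DOX (2 genes), of the H4 genes 26.8 and 24.3 (5 genes), of the H2A genes 17.6 and 12.2 (7 genes) and of the H2B genes 11.7 and 8.40 (8 genes). In the second block H3 had 42.2 over 6 genes and 30.6 over 7, and H4 had 19.4 and 18.7 over 6 genes. There H2A had 11.2 and 12.5 over 5 genes, and H2B 13.1 and 12.2 over 6. The 4 H1 genes of the second block with a peak had the highest medians, 55.1 and 60.0, whereas the H1 gene of the first block, Hist1h1b, had 18.6 and 14.3. Weak peaks also occurred among the H1 genes, since Hist1h1a had 8.33 and 5.84.

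Most RUNX1 summits lay on the histone coding sequences. Of the 73 distinct peaks in the list labelled +DOX, 46 (63.0%) had the summit in a coding sequence, 21 after a stop codon, 2 between coding segments and 4 before a start codon. Of the 69 in the list labelled -DOX, the numbers were 48 (69.6%), 17, 1 and 3. Among all RUNX1 peaks within 1500 bp of the start of a protein-coding gene, 13.3% in the list labelled +DOX and 14.0% in that labelled -DOX had the summit in a coding sequence. For peaks near the starts of the 1256 other protein-coding genes of 1 exon, which share the compact form of the histone genes, the share was 39.8% of 269 peaks and 42.2% of 237. Both comparison sets held only peaks within 1500 bp of a start. The histone peaks were taken from the whole gene with 1500 bp to each side, so the rules differ. In the 500 bp after the annotated start, 49 of 67 histone genes (73.1%) had a summit in the list labelled +DOX and 48 (71.6%) in that labelled -DOX, beside 25.3% and 24.0% of all genes. In the 500 bp before the start, 22.4% and 17.9% of the histone genes did, beside 15.0% and 13.1% of all genes. The peaks covered a median of 91.2% of the coding sequence in the list labelled +DOX and 89.7% in that labelled -DOX, while over 50% of the 250 bp before the start codon was covered at 12 and 7 genes and none of it at 30 and 29. The coding sequence was covered in full at 28 and 26 genes. Many histone genes are annotated as little more than their coding sequence, so that distances to an annotated start and to the start codon are often nearly the same. Much of the sequence of the core histone genes is repeated among copies, as described below, so the places of their summits are uncertain.

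**Figure D3:**
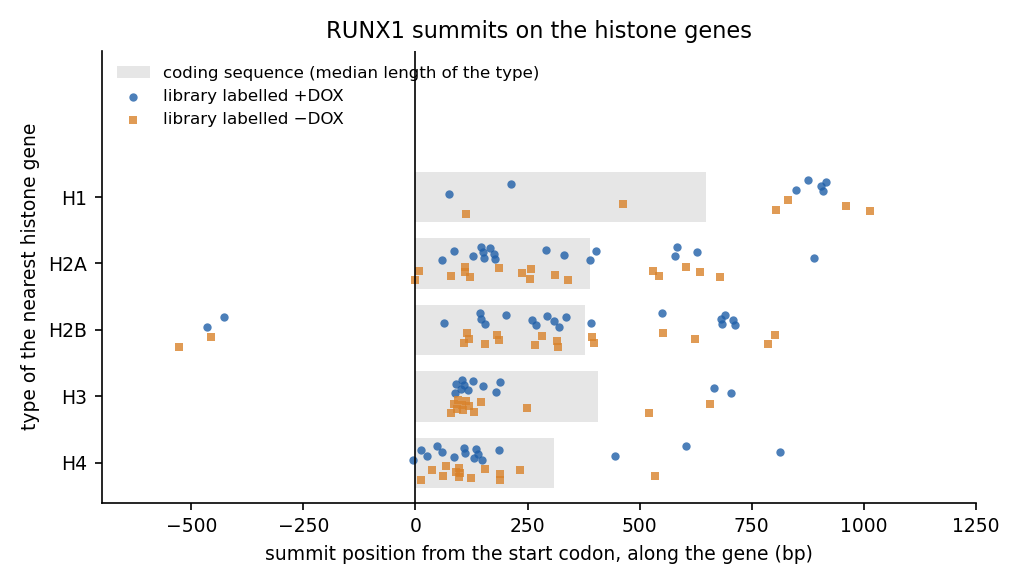
RUNX1 summits by distance from the start codon along the nearest histone gene (bp), by histone type, for the libraries labelled +DOX (circles) and -DOX (squares), where the grey box is the median coding length of the type. One Hist1h2be peak per list, far before the start codon, lies off the axis. H3 and H4 summits gather in the first part of the coding sequence, and most H1 summits lie after the stop codon.

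The position differed between types. At H3 genes 10 of 12 peaks in the list labelled +DOX and 11 of 13 in that labelled -DOX had the summit in the coding sequence, at a median of 114 and 106 bp from the start codon. At H4 genes it was 12 of 16 and 13 of 14, at a median of 111 and 99.0 bp. H1 genes differed: 5 of 7 summits in the list labelled +DOX and 4 of 6 in that labelled -DOX lay after the stop codon, among them the 3 strongest H1 peaks of each list, at Hist1h1c, Hist1h1e and Hist1h1d. Hist1h1b had a peak after the stop codon (11.6 and 12.5) and a stronger one in the coding sequence (18.6 and 14.3). At Hist1h1c the summit was 213 and 325 bp past the stop codon, at Hist1h1e 261 and 176 bp, and at Hist1h1d, named for its type after its values were seen, 243 and 353 bp. These 3 peaks were wide, from 1314 to 1948 bp, and each covered at least 97.3% of the coding sequence. H2A and H2B genes had both kinds. At H2A, 11 of 17 and 12 of 17 summits were in the coding sequence and 6 and 5 after the stop codon, with none before the start codon in either list. At H2B, 11 of 21 and 10 of 19 were in the coding sequence and 5 of each list after the stop codon.

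Many H2A and H2B genes stand head to head and share 1 promoter, so summits between the starts were counted apart from those in the genes. There were 13 pairs of divergent histone genes with starts less than 1000 bp apart, 12 of them an H2A and an H2B gene and 1 of an H2B and an H3 gene, with a median of 267 bp between the starts. Not 1 of the 13 had a summit between the starts in either list. Over all 733 divergent pairs of protein-coding genes with starts this close, 19.6% had one in the list labelled +DOX and 15.1% in that labelled -DOX. At 7 of 13 pairs in either list a summit lay between the first and last coding base of both partners, and at 6 and 5 pairs between those of 1 partner. This span includes any gap between coding segments. Histone peaks had a median width of 524 and 537 bp in the lists labelled +DOX and -DOX, beside the median of 267 bp between these starts. Much of the H2A and H2B sequence is also repeated among copies, so the places of these summits are uncertain.

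The promoters themselves held the elements known for histone genes. In the window from 250 bp before to 50 bp after the annotated start, TATAAA, the TATA box, was present on either strand at 37 of 67 histone genes (55.2%), and at 12.6% of all protein-coding genes. CCAAT, bound by NF-Y, was present at 56 of 67 (83.6%), and at 39.0% of all genes. All 18 H2A and 18 H2B promoters had it, but 4 of 13 H4 promoters did. The octamer ATTTGCAT, read by POU2F1, was found at 7 H2A and 8 H2B promoters and at none of the other types, with 1.57% over all genes. AAACACA, the H1 box, was present at 4 of 6 H1 promoters and at 6.40% of all promoters. It also occurred at 1 of 18 H2A, 3 of 18 H2B and 1 of 12 H3 promoters. TGTGGT, the core of the RUNX motif, was present at 7 of 67 (10.4%), beside 15.3% of all genes; no motif searched is contained in another. Neither GAGGAAGT (PU.1) nor TGACTCA (AP-1) occurred in any histone promoter window, where 3.23% and 4.59% of all promoters held them. RefSeq promoters matched 62 of 67 genes by symbol, and the windows for motif counts were read at the annotated starts.

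At the RUNX1 summits of the histone genes, the RUNX core was about as frequent as at other promoter peaks and rarer than over whole lists. In the 201 bp at the summit, TGTGGT was present at 9 of 73 peaks (12.3%) in the list labelled +DOX and 8 of 69 (11.6%) in that labelled -DOX. Over all peaks of the lists it was 28.7% and 26.4%, and over peaks within 1500 bp of a protein-coding start 11.4% and 11.3%. The ETS core TTCCGG was absent from all 73 and all 69 summit windows, while 21.0% of the peaks near starts had it in either list. CCAAT was present at 10 and 7 of the summit windows. The median GC content of the histone windows was 62.2% and 63.2%, below the 68.7% and 69.2% of the peaks near starts. A match of letters does not show binding, and the lack of a match shows only that the letters are not in the window.

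The histone genes are near-copies of one another, which bears on where short reads can be placed. For the median histone gene, 54.9% of the 32-base words in the gene occurred more than once in the genome, and for 38 of 67 genes over 50% did. H1 genes were nearly free of such words (median 4.11%, highest 11.2%), while H2A had 74.7%, H3 60.8%, H2B 53.9% and H4 47.4%. Reads from repeated stretches can be shared among copies or dropped, so single values and summit positions of core histone genes are uncertain. In the 400 bp at the summit, 100% of such words were repeated at Hist2h3c1 in both lists. At Hist1h3h it was 78.3% and 72.1% in the lists labelled +DOX and -DOX. At Hist4h4 it was 0.271% in both lists, and at Hist1h1c 0%. How far repeated sequence shaped the peaks and the places of their summits was not tested. The median -log10 q was 16.7 and 14.7 in the lists labelled +DOX and -DOX over 35 genes with more than 50% repeated words, and 22.7 and 18.8 over 26 genes with up to 50%, which include all H1 genes. Within types the order varied, since H2A genes had 17.1 and 12.2 above 50% and 11.3 and 13.8 up to 50%, and H3 genes 47.2 and 36.6 above it and 45.5 and 51.1 up to it. H2B and H4 genes had the lower median above 50% in both lists, H4 with 18.4 and 17.1 above it and 26.9 and 21.7 up to it. Without the repeated genes, 96.6% of the remaining 29 had a RUNX1 peak in either list.

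Both RUNX1 lists held largely the same sites at the histone genes. With summits extended by 200 bp and merged, 62 of 79 sites (78.5%) had a summit in both lists, where 56.7% of all 24980 RUNX1 sites did. Of the other 17, 10 were found only in the list labelled +DOX and 7 only in that labelled -DOX, and these numbers exchange if the run names rather than the labels are right. At 8 of the 17 the peak still overlapped one of the other list. The 9 sites without such an overlap had a -log10 q from 3.03 (percentile 4.45) at Hist1h2ag, Hist1h2bj and Hist1h4i to 12.9 (percentile 67.8) at Hist1h2bm, an H2B gene. The 2 lists are of unequal length, with 21831 and 18389 peaks.

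Of 72 overlapping pairs of RUNX1 peaks at histone genes, 40 had the higher percentile in the list labelled +DOX and 32 in that labelled -DOX, while over all 15094 pairs it was 8737 and 6356. The median percentile was 78.3 and 75.4 at histone genes, and 64.4 and 58.9 over all pairs. In 38 of 72 pairs the percentiles lay within 10 points of each other, and over all RUNX1 peaks in 6732 of 15094 pairs.

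**Figure D4:**
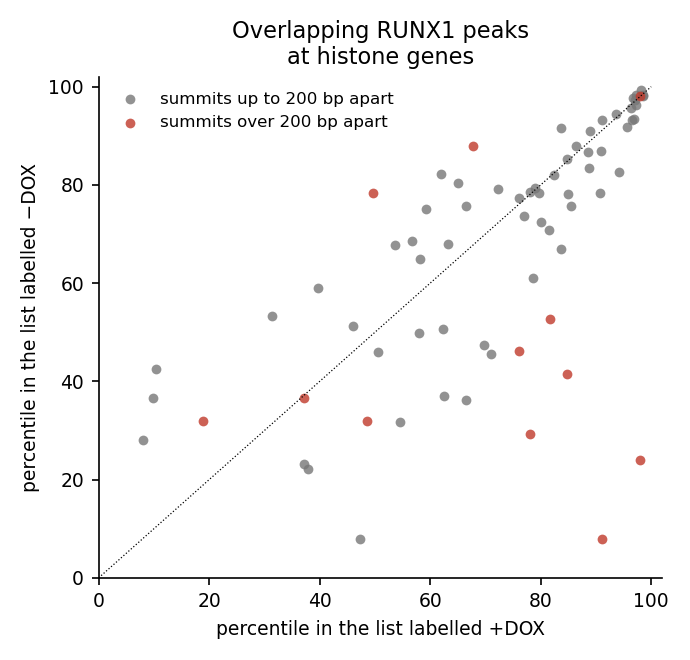
Percentile of -log10 q within the own list for the 72 overlapping pairs of RUNX1 peaks at histone genes, in the lists labelled +DOX and -DOX, with the dotted line at equal percentiles and pairs with summits over 200 bp apart in red. A pair with both peaks at percentile 98.0 stands among the red points, that of Hist2h3c2.

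The median distance between the summits of a pair was 59.5 bp at histone genes and 52.0 bp over all pairs, and 33 of 72 histone pairs and 7409 of all 15094 lay within 50 bp. Summits over 200 bp apart were found in 12 of 72 pairs (16.7%), close to the 13.1% of all overlapping pairs. Histone peaks were wide, with a median width of 524 and 537 bp in the lists labelled +DOX and -DOX, where all peaks had 306 and 312 bp. Among pairs of 500 to 1000 bp mean width, 15.2% at histone genes and 21.2% of all had summits that far apart, and among narrower pairs 16.1% and 9.39%.

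The widest shift was at Hist2h3c2, an H3 gene, whose peak was shared with the H2A gene Hist2h2aa2. In the list labelled +DOX the peak had a -log10 q of 68.4 and the summit 495 bp before the start of Hist2h3c2, toward Hist2h2aa2. In the list labelled -DOX it had 69.7 and the summit 316 bp after the start, in the coding sequence, 811 bp away. The peaks themselves overlapped over most of their length, being 1679 and 1444 bp wide. The inverted copy Hist2h3c1, with peaks of 59.6 and 77.7, kept its summit 255 and 314 bp after the start. In the 400 bp at the 2 Hist2h3c2 summits, 90.5% and 100% of 32-base words occurred more than once in the genome. At both Hist2h3c1 summits it was 100%. Reads there may be placed at either copy, so the shift and the contrast between the copies are uncertain. A weak second peak lay in the body of Hist2h3c2 in the list labelled +DOX (4.58) and near Hist2h2aa2 in that labelled -DOX (5.02), the latter also counted as a pair with the strong peak at 619 bp.

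**Figure D5:**
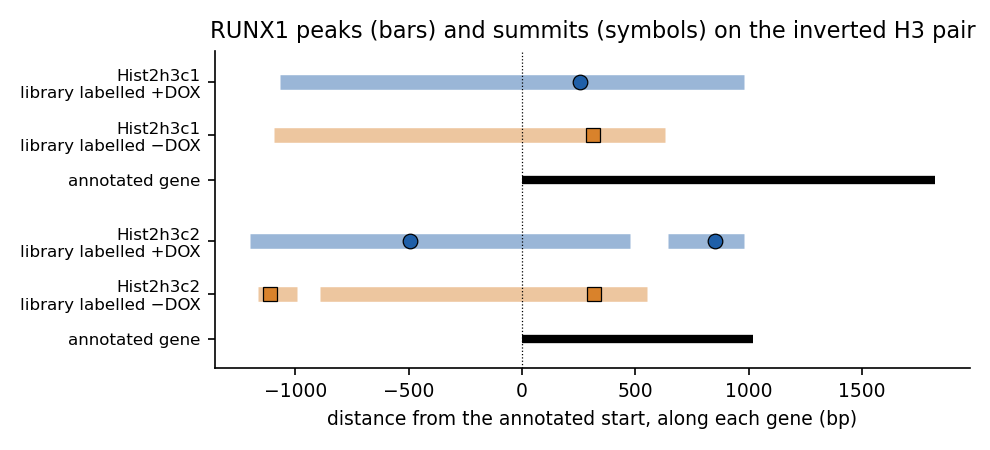
RUNX1 peaks (bars) and summits (symbols) at Hist2h3c1 and its inverted copy Hist2h3c2, by distance from the annotated start along each gene (bp), with the annotated gene in black. The summits of Hist2h3c1 lie at 255 and 314 bp, while those of the strong peaks at Hist2h3c2 lie at -495 bp in the library labelled +DOX and 316 bp in that labelled -DOX. The sequence at these summits is repeated in the genome, so their places are uncertain.

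In 1 further pair both peaks had a -log10 q of 10 or more. It lay at the H2A genes Hist2h2ab and Hist2h2ac and the H2B gene Hist2h2be, with 12.9 and 25.8 and summits 790 bp apart, but the list labelled +DOX had a second peak of 24.0 there that matched the stronger one. In the other 9 pairs at least 1 peak had a -log10 q under 10. At the H3 and H4 genes Hist1h3a and Hist1h4a the summits were 668 bp apart (16.4 and 7.68), and at Hist1h2ap, Hist1h2br and Hist1h4n 583 bp (17.4 and 5.48). The H4 gene Hist1h4d had 424 bp (22.4 and 6.87) and the H3 gene Hist1h3i 419 bp (31.5 and 3.35). Hist1h1a had 413 bp (8.33 and 5.84) and, with Hist1h3a, 389 bp (4.76 and 5.84). Hist1h2ae and Hist1h2bg had 405 bp (6.70 and 6.30), Hist1h2ao and Hist1h4m 348 bp (8.58 and 17.1), and Hist2h2bb and Hist2h3b 253 bp (19.7 and 8.62). In each case the value of the list labelled +DOX comes first. At 6 of these 9 pairs one of the peaks also overlapped another peak of the other list with a summit close by. These summits were 39 bp apart at Hist1h4a (16.4 and 16.5), 20 bp at Hist1h2ap (17.4 and 17.2), 43 bp at Hist1h4d (22.4 and 22.6), 3 bp at Hist1h3i (31.5 and 36.3), 38 bp at Hist1h2bg (6.70 and 4.93) and 11 bp at Hist1h4m (18.4 and 17.1).

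The only histone gene with an H3K27me3 peak was Hist3h2ba, an H2B gene on chromosome 11. The summit lay 310 bp after the start in the library titled untreated, with a -log10 q of 7.62 (percentile 58.9), and 305 bp after it in that titled DOX, with 4.53 (percentile 40.5). In the 400 bp at these summits, 53.7% and 55.0% of 32-base words occurred more than once in the genome, so the call and its place are uncertain. RUNX1 peaks at the same gene were among the weakest of the group, with summits 280 and 136 bp after the start. The next histone gene, its neighbour Hist3h2a, was 5455 bp from that summit in the library titled untreated and 5460 bp in that titled DOX. For the other families the nearest H3K27me3 summit was 53.6 and 53.2 kb from a gene of the first Hist1 block, 791 and 704 kb from one of the second, and 72.7 and 63.9 kb from Hist2. From Hist4h4 it was 140 and 12.4 kb away. Within the span of the first block 1 and 3 H3K27me3 summits lay in its interior, and within the spans of the second block, Hist2 and Hist4 there were none.

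Other genes of the histone supply were counted by the same rule. Of 17 genes for histone gene transcription and pre-mRNA processing, 16 had a RUNX1 peak in either list, beside 53.2% and 49.6% of all genes, and Lsm10, a subunit of the U7 snRNP, had none. For 15 of the 17 the summit was within 1500 bp of the start. Slbp, the stem-loop binding protein, had a -log10 q of 46.7 and 56.6 in the lists labelled +DOX and -DOX, and Npat, the coactivator of histone genes at S phase, had 18.2 and 11.2, both singled out for their role after the values were seen. Their summits lay 334 and 504 bp after the start at Slbp, and at -160 and -76 bp from it at Npat. All 8 histone chaperone genes, among them Chaf1a, Asf1a and Nasp, had a RUNX1 peak in both lists. Of 11 replication-independent histone genes, such as H2afz, H3f3a and Cenpa, 11 had a peak in the list labelled +DOX and 10 in that labelled -DOX, where H2afy2 had none. An H3K27me3 peak was found in both libraries at H2afy2 and H1fx (2 of 11), at Sympk (1 of 17) and at Hira (1 of 8), beside 14.3% and 14.8% of all genes. At Sympk an H3K27me3 summit (47.6 and 42.3 in the libraries titled untreated and DOX) lay 9228 and 9225 bp after the start. A RUNX1 summit (41.5 and 42.5 in the lists labelled +DOX and -DOX) lay at 9220 and 9222 bp, so all 4 lists peaked at nearly the same place. Why they did was not tested. H2afy2, a macroH2A gene, had an H3K27me3 -log10 q of 9.28 in the library titled untreated and 3.93 in that titled DOX.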

How the data were processed

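ChIP-seq libraries of RUNX1 (2) and H3K27me3 (2) were used as deposited peak lists. Per the submitters' processing notes reads were aligned to mm10 with Bowtie2 2.2.9 and peaks called with MACS2 2.1.1, whereas the study's methods give another Bowtie2 version; peaks were called per library, and no input control is named. The lists may precede the authors' blacklist and repeat filters. The authors deposited for each peak a fold enrichment over local background (a ratio), and the −log10 of a p-value and of a q-value. Column q ranked peaks within a list; the p-value was not used. Depth is unknown. Peaks off the assembled chromosomes (146 to 300 per list) were left out.

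Here summits were matched to genes, merged after extension by 200 bp, and set beside all protein-coding genes, with Python 3.11.15, numpy 2.4.6, scipy 1.17.1 and matplotlib 3.10.9. Counting steps were tested on simulated data. Sequences come from GRCm38.p6, which is mm10. The members and lists were chosen with earlier results of these data known. Values were given for the 10 members with the highest −log10 q per RUNX1 list, the 5 highest per H3K27me3 list, members whose overlapping RUNX1 peaks had summits over 200 bp apart, those with a peak in 1 RUNX1 list only and those without any; others are named by type. Alternatives varied distance, threshold, list length, overlap and extension.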

Additional observations from a re-analysis of the deposited data

How the results depend on the processing

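The share of histone genes with a RUNX1 peak in the lists labelled +DOX and -DOX was 100% in both within 3000 bp and in both with any overlap of peak and gene window. It was 89.6% and 80.6% at a −log10 q of at least 10 (all genes 31.1% and 26.5%), 74.6% and 71.6% with the 5000 strongest peaks (all genes 17.8% and 17.9%), and 83.6% and 82.1% with summits inside the gene (all genes 42.3% and 39.7%). The last setting, and leaving out repeated genes, were chosen after seeing the data. The share with an H3K27me3 peak fell to 0% at a −log10 q of at least 10 in both libraries, and at 5 in that titled DOX, since the only peak lay below. Summit pairs far apart numbered 24 at over 100 bp, 8 with a longer overlap required of the peaks, and 2 when both peaks had to reach a −log10 q of 10. Sites in both lists made up 87.1% by overlap of peaks (all sites 56.5%) and 66.7% among the 5000 strongest peaks (all sites 57.2%). The difference from all sites was thus smaller among the strongest peaks. In the other alternatives run, these values moved by less than their interval or by at most 1.5 times. No paired analysis was possible because there was 1 library per condition. No genes of annotation level 3 were among the members, so that alternative changed nothing.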
